A study of Mus musculus with 15 samples.

Results

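Genes for 8 regulators of G protein signalling were followed across the cell classes of the mouse striatum and across antipsychotic treatment. They are Rgs2, Rgs4, Rgs7bp, Rgs8, Rgs9, Rgs10, Rgs14 and Rgs16, taken by name from the 15932 genes of the deposited count table. They were chosen with earlier results of the same data in view, both their levels by class and some of their drug contrasts. Their levels by class are therefore given as a description, and counts of tests over them support nothing further.

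A receptor coupled to a G protein switches on the alpha subunit by loading it with GTP, and the subunit switches itself off by hydrolysing that GTP. RGS proteins bind the active alpha subunit and speed this hydrolysis, which shortens the signal. In striatal neurons they act downstream of dopamine, muscarinic, adenosine and opioid receptors, and Rgs9 together with its membrane anchor Rgs7bp is the best known set there. Outside neurons, Rgs10 is known from microglia and Rgs4 from the contractile cells of blood vessels.

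The data are droplet single-cell RNA libraries, 1 per mouse, from the mechanically dissociated striatum of 15 male mice of the inbred strain C57BL/6J, after removal of dead cells, with no sort mentioned in the labels. Of these mice, 5 received placebo, 5 haloperidol released by an implanted pellet, and 5 olanzapine mixed into the food. The mice were bought when 8 weeks old, had roughly 1 week to settle, and were then dosed for 28 to 29 days. Drug and route differed together, and the labels do not say how the placebo was given. Haloperidol is a typical antipsychotic that blocks dopamine D2 receptors, and olanzapine an atypical one that blocks serotonin and dopamine receptors. Mouse numbers within a group only name a mouse.

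After filtering, 5476 cells with 18254037 unique molecular identifiers (UMIs, each 1 captured RNA molecule) were analysed, from 70 to 1172 cells and 215990 to 4235427 UMIs per mouse. Placebo 5 stood apart. Of its 514 deposited cells, 211 carried a barcode also found in placebo 2 or placebo 3, and 210 of these had the same class in both libraries, whereas no other of the 105 pairs of libraries shared more than 2 barcodes. The median shared cell held 3.05 times as many UMIs in placebo 2, and 3.25 times as many in placebo 3, as in placebo 5, so drug results are also given without the shared cells of placebo 5. Classes are those deposited, checked by markers in CPM (UMIs of a gene per 1000000 UMIs of the same cells). Microglial markers summed to 34399 CPM in microglia and 80.2 in neurons. Myelin markers summed to 62068 CPM under the label olig precursor and 1938 under the label oligodendrocyte, and precursor markers to 1170 and 7862, so these labels go against the markers and are used only as labels. The class other held endothelial (9603 CPM), pericyte (7066), smooth muscle (3175) and fibroblast (573) markers.

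The promoters of 4 members are shown because the results turn on these genes and because the members differ in a short motif there. Each sequence is the 250 bases before the RefSeq start on GRCm38.p6, read 5′ to 3′ on the gene's strand. Capitals mark the cAMP response element core TGACG, or CGTCA on the other strand, a motif bound by CREB, which is known to drive genes after cAMP or calcium signals.
Rgs2, chr1:144004150-144004399, minus strand: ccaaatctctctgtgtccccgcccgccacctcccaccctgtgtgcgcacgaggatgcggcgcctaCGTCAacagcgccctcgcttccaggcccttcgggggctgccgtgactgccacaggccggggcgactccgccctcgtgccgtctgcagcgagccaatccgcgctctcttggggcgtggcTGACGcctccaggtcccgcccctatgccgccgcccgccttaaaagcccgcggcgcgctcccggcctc
Rgs4, chr1:169747643-169747892, minus strand: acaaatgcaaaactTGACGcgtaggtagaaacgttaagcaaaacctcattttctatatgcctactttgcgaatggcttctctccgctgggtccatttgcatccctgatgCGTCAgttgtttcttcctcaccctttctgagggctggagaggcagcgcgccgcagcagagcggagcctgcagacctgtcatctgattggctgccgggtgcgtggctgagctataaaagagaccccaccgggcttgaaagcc
Rgs7bp, chr13:105054931-105055180, minus strand: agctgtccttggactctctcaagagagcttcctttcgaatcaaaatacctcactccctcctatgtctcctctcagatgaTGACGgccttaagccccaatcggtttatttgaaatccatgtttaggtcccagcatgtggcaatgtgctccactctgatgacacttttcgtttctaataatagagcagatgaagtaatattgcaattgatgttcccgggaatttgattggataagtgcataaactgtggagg
Rgs9, chr11:109298182-109298431, minus strand: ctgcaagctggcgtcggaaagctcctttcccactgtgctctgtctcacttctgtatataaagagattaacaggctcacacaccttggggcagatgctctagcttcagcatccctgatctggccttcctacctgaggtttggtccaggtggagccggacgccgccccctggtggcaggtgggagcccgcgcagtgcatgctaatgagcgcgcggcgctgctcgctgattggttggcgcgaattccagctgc
This core begins 185 and 67 bases before the start of Rgs2 (positions -185 and -67), at -236 and -141 in Rgs4, at -171 in Rgs7bp and at -46 before the first start of Rgs8. No match was found in these windows of Rgs9, Rgs10 or Rgs16, nor before starts 2 and 3 of Rgs8. Rgs14 had no promoter sequence to search. Of 32851 promoters of the same length, 17.8% hold the core on either strand. The windows also differ in base composition, with 72.4% G and C in Rgs2, 53.6% in Rgs4, 43.2% in Rgs7bp and 59.6% in Rgs9, against a median of 52.4% over all promoters. A TATAAA match on either strand occurred in Rgs4 and Rgs9, as in 12.4% of all promoters.

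Position groups some members as well. By the GENCODE M21 annotation of GRCm38, the build also named mm10, 4 of the 8 lie on chromosome 1: Rgs2 (143999338 to 144004161), Rgs8 (153653025 to 153700323), Rgs16 (153740349 to 153745468) and Rgs4 (169741477 to 169747642). Rgs9 lies on chromosome 11 (109225355 to 109298129), Rgs10 on chromosome 7 (128373621 to 128418758), and Rgs14 (55369732 to 55384687) and Rgs7bp (104945904 to 105054930) on chromosome 13. The neighbours Rgs8 and Rgs16 lie 40025 bases apart on the same strand, yet their levels peaked in different classes, as given below.

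Levels below are CPM of the summed cells of 1 class in 1 mouse, as the mean ± SD over mice with at least 10 cells of that class. Rgs9 and Rgs7bp, the 2 members of the Rgs9 complex, were both highest in neurons. Rgs9, which accelerates the switching off of inhibitory alpha subunits, stood at 381 ± 75.9 CPM in neurons (n = 15) and at 32.6 ± 13.1 CPM in the class labelled oligodendrocyte (n = 11), its next highest class. The lowest neuron value (206 CPM, placebo 4) lay above the highest value of that next class (53.2 CPM), and 89.6% of all Rgs9 UMIs came from neurons. At least 1 Rgs9 UMI was seen in 59.9% of neurons and in 2.59% of microglia, whose median depths were close (3302 and 3407 UMIs per cell). After each cell was thinned to 1000 UMIs, the shares were 32.02% and 0.81%, with 46 neurons and 23 microglia too shallow to enter.

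Rgs7bp, which tethers Rgs9 and its relatives to the membrane, was less restricted. It reached 293 ± 119 CPM in neurons (n = 15), 107 ± 44.7 CPM in the class labelled oligodendrocyte (n = 11) and 81.5 ± 57.4 CPM in the class other (n = 12). These 3 ranges overlapped between neighbours in that order. Of Rgs7bp UMIs, 67.4% came from neurons. In the class labelled oligodendrocyte, where precursor markers lay, 27.3% of cells held a UMI, and 10.5% after thinning (95% Wilson interval 7.88 to 13.8, counting error only).

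The small RGS proteins Rgs4 and Rgs8 were neuronal in different ways. Rgs8, which acts on inhibitory and Gq-type subunits, was highest in neurons (75.4 ± 20.3 CPM, n = 15), followed by neuroblasts (22.8 ± 18.3 CPM, n = 14), with overlapping ranges. Rgs4 reached 263 ± 86.1 CPM in neurons (n = 15) but was higher in the vascular class other, at 562 ± 276 CPM (n = 12), again with overlapping ranges. In the remaining 5 classes Rgs4 was at or below 16.6 CPM on average, and no neuron value lay as low as the highest neuroblast value. Neurons and the class other together supplied 48.4% and 43.6% of its UMIs.

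Rgs10 and Rgs2 were highest in microglia. Rgs10, known for restraining inflammatory signalling in these cells, reached 1898 ± 151 CPM (n = 13, from 1628 to 2078 CPM), 18.7 times the mean of neurons (102 ± 55.3 CPM, n = 15), with no overlap. An Rgs10 UMI was seen in 92.8% of microglia, and 90.2% of its UMIs came from them. Rgs2, which prefers the alpha subunit Gq and is induced quickly by many stimuli, reached 762 ± 242 CPM in microglia (n = 13) and 161 ± 78.1 CPM in neurons (n = 15). These 2 ranges overlapped, because olanzapine 1 neurons (383 CPM) lay above haloperidol 3 microglia (364 CPM).

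The neuronal signal of both genes was set against RNA that could come from microglia. With all cells pooled, neurons held Rgs2 at 18.7% and Rgs10 at 5.69% of the microglial level. The 8 microglial markers stood in neurons at 0.143% (C1qa) to 1.55% (Sall1) of their microglial level. In astrocytes, Rgs2 was at 1.66% and Rgs10 at 0.466% of the microglial level, beside 0.118% for Csf1r, 0.363% for P2ry12 and 18.4% for Sall1. Re-clustering, described below, put 233 of the 958 neurons into clusters with microglial markers enriched, at a marker sum of 250 CPM against 46.8 CPM in the other 725 neurons and 34399 CPM in microglia. In these other neurons Rgs2 was at 144 CPM (95% Poisson interval 131 to 157) and Rgs10 at 98.1 CPM (87.7 to 110), and in the 233 at 175 CPM (144 to 210) and 155 CPM (126 to 188).

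Rgs14 and Rgs16 were scarce, with 183 and 138 UMIs in all cells. Rgs14, a scaffold that also binds Ras proteins, was highest in neurons (39.0 ± 28.3 CPM, n = 15, from 9.38 to 125 CPM), and 80.9% of its UMIs were there. Rgs16 was highest in neuroblasts (34.0 ± 17.4 CPM, n = 14), followed by the class other (14.1 ± 18.5 CPM, n = 12) and neurons (5.79 ± 9.57 CPM, n = 15), each overlapping the next. No Rgs16 UMI was found in 887 microglia, which allows up to 0.95 CPM there (3 counts, counting error only). Unlike Rgs8 beside it on the chromosome, Rgs16 thus had its highest mean outside mature neurons.

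**Figure D1:**
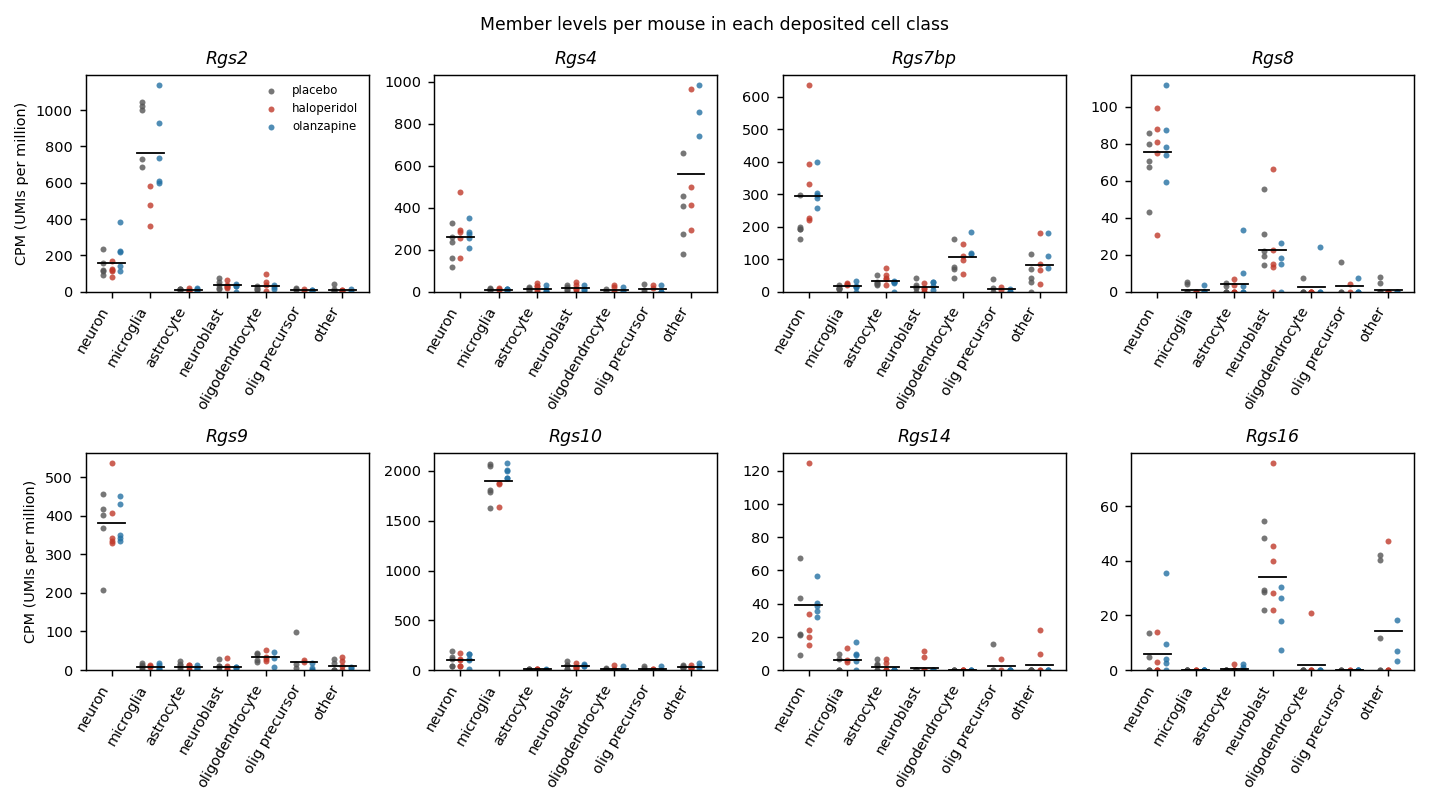
Level of each member in CPM (linear axis, scaled per gene) in the 7 deposited classes, with 1 point per mouse of at least 10 cells coloured by treatment, and a line at the mean over mice. Rgs10 and Rgs2 are highest in microglia, Rgs9, Rgs7bp, Rgs8 and Rgs14 in neurons, Rgs4 in the class other and Rgs16 in neuroblasts.

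Cells of the class neuron were clustered anew without the members and named from fixed markers. Rgs9 was carried by projection neurons of both pathways. Over the 8 mice with at least 10 such cells, it stood at 417 ± 97.0 CPM in direct-pathway neuron-like cells (281 cells with Drd1, Tac1 and Pdyn enriched) and at 481 ± 63.4 CPM over 8 mice in indirect-pathway neuron-like cells (208 cells with Drd2, Penk and Adora2a enriched), with ranges that overlapped. A cluster named only from shared projection neuron markers (111 cells) held 409 ± 170 CPM over 5 mice. In 43 interneuron-like cells, of which only 1 mouse gave 10, the pooled level was 40.8 CPM (95% Poisson interval 22.3 to 68.4, counting error only).

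Other members were distributed differently among neurons. Pooled Rgs4 was 17.5 CPM (6.41 to 38.0) in interneuron-like cells, against 204 CPM (177 to 235) in direct-pathway and 256 CPM (220 to 297) in indirect-pathway neuron-like cells. Rgs8 was 43.6 CPM (31.4 to 58.9) in direct-pathway and 78.3 CPM (59.0 to 102) in indirect-pathway neuron-like cells when pooled, but over mice 40.7 ± 18.1 and 68.1 ± 37.4 CPM (n = 8 each), with overlapping ranges. In interneuron-like cells pooled Rgs8 was 72.8 CPM (47.1 to 107). Among the named clusters Rgs10 had its highest pooled level in interneuron-like cells, at 201 CPM (156 to 254), against 55.0 CPM (41.2 to 71.9) in direct-pathway neuron-like cells. Rgs14 gave no UMI in interneuron-like cells, which allows up to 8.74 CPM. It reached 81.4 CPM (64.0 to 102) in the cluster of shared projection neuron markers. The interneuron-like cells were those with Sst, Npy and Nos1 enriched. A cluster of 21 cells with Pvalb, Pthlh, Lhx6 and Nkx2-1 enriched stayed unnamed, since as many neuroblast markers were enriched in it, and its levels differed for some members. There Rgs4 was 175 CPM (110 to 265), Rgs7bp 270 CPM (187 to 377) and Rgs10 270 CPM (187 to 377), and Rgs9 gave no UMI, which allows up to 23.8 CPM.

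The cluster of shared projection neuron markers was also the highest of the named neuron clusters for Rgs7bp (523 CPM, 478 to 572), Rgs4 (474 CPM, 431 to 521) and Rgs8 (127 CPM, 105 to 152). Its cells were deeper, with a median of 8318 UMIs, than those of the direct-pathway (3517 and 2961 in its 2 clusters) and indirect-pathway (3377) clusters. The part of depth in these levels was not tested. Unnamed clusters held 315 of the 958 neurons, among them the 233 with microglial markers.

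The class other was clustered in the same way, a step added after its values had been seen. Rgs4 lay mostly in the mural cells that wrap vessels. Of its UMIs in the class, 47.1% were in pericyte-like, 28.3% in smooth muscle-like and 23.6% in unnamed clusters. Its pooled level was 1857 CPM (1685 to 2042) in 109 pericyte-like cells and 1282 CPM (1129 to 1449) in 43 smooth muscle-like cells. It was 27.1 CPM (11.7 to 53.4) in 147 endothelial-like cells, and 1 UMI was found in 53 fibroblast-like cells. A further 74 cells with endothelial markers enriched stayed unnamed, because a neuronal marker and no endothelial one was among their 10 leading genes, and held Rgs4 and Rgs7bp at 21.4 CPM each (6.95 to 49.9). Those 74 cells held 5 Rgs4 UMIs, and the rest of the unnamed share lay in clusters of 56, 24 and 18 cells. Of these, the 56 cells had the astrocyte markers Aldoc and Slc1a2 enriched. An Rgs4 UMI was seen in 93.6% of pericyte-like and 97.7% of smooth muscle-like cells. Rgs7bp was highest in smooth muscle-like cells, at 312 CPM (239 to 400), against 78.7 CPM (46.6 to 124) in pericyte-like and 13.5 CPM (3.69 to 34.7) in endothelial-like cells.

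**Figure D2:**
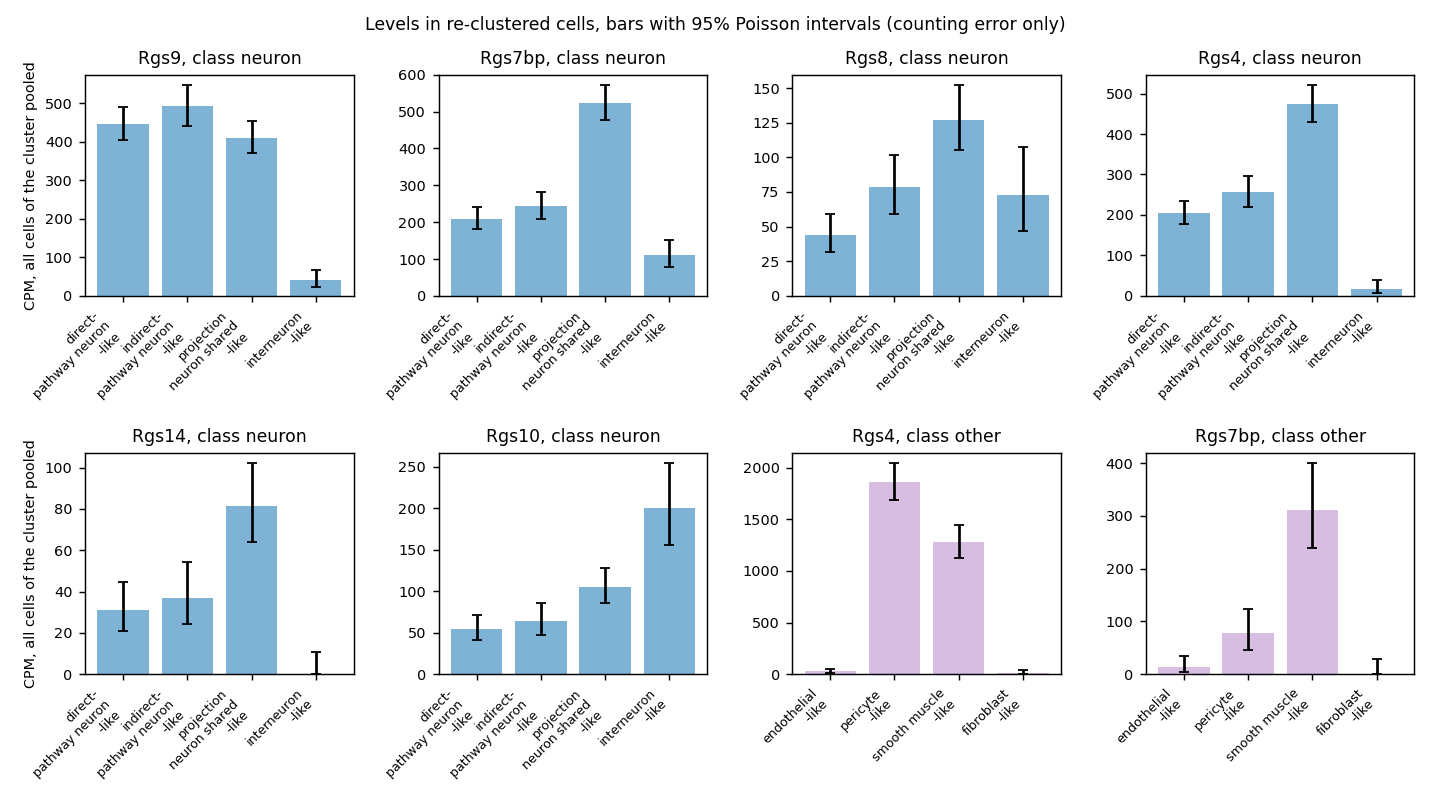
Pooled level in CPM (bars) with 95% Poisson intervals (whiskers, counting error only) of 6 members in 4 named neuron clusters (blue) and of Rgs4 and Rgs7bp in 4 named clusters of the class other (violet). Rgs9 is low in interneuron-like cells, Rgs10 is highest there, and Rgs4 reaches 1857 CPM in pericyte-like cells.

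Genes with the most similar pattern were taken over 89 sums of 1 mouse and 1 class, among 9775 genes, by Pearson correlation of log2(CPM + 10). These sums share libraries and depth, so the values are descriptive. Rgs10 was most like Cd68 (r = 0.92), a lysosomal gene of phagocytes, then Ppfia4 and Hpgds (both 0.90). Rgs2 was most like Spint1, Coro1a and Slc7a8 (0.89 each), and its correlation with Rgs10 was 0.86. Among the 3 genes nearest to Rgs9 were Tac1, the substance P precursor, and Slc8a2 (0.91 each). Among the 3 nearest to Rgs8 were Cacng2 and Slc32a1 (0.89 and 0.88), and among those nearest to Rgs7bp were Cx3cl1 and Arhgap20 (0.83 and 0.81). Rgs4 was nearest to Il34, Pcp4l1 and Gcnt2 (0.93, 0.90 and 0.88). The scarce Rgs14 (nearest Mhrt, 0.85) and Rgs16 (nearest Nrep, 0.74) carry more counting error.

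The design sets haloperidol and olanzapine each against placebo, and against one another. Filtering on low counts left 6 members in neurons (Rgs2, Rgs4, Rgs7bp, Rgs8, Rgs9, Rgs10), 2 in microglia (Rgs2, Rgs10), 2 in the class other (Rgs4, Rgs7bp) and Rgs7bp alone in astrocytes and in the class labelled oligodendrocyte. Rgs14 and Rgs16 passed in no class, and no member passed in neuroblasts or under the label olig precursor. This gave 12 tests per comparison by edgeR's quasi-likelihood test, adjusted by Benjamini-Hochberg over all genes of a class. For haloperidol against placebo, 0 of 12 member tests passed an adjusted p of 0.05, where 0.0097% of all 20623 tests passed, and 3 of 12 had an unadjusted p under 0.05 against 3.97% of all. For olanzapine against placebo the members' count was also 0 of 12 (0.0429% of 23324 tests), with 2 of 12 under an unadjusted 0.05 (4.15% of all). Between the drugs it was 0 of 12 (0% of 20623 tests), with 3 of 12 under an unadjusted 0.05 (3.43% of all). DESeq2 also called 0 members in each comparison. Since members were chosen partly on these contrasts, nothing is read from these shares.

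**Figure D3:**
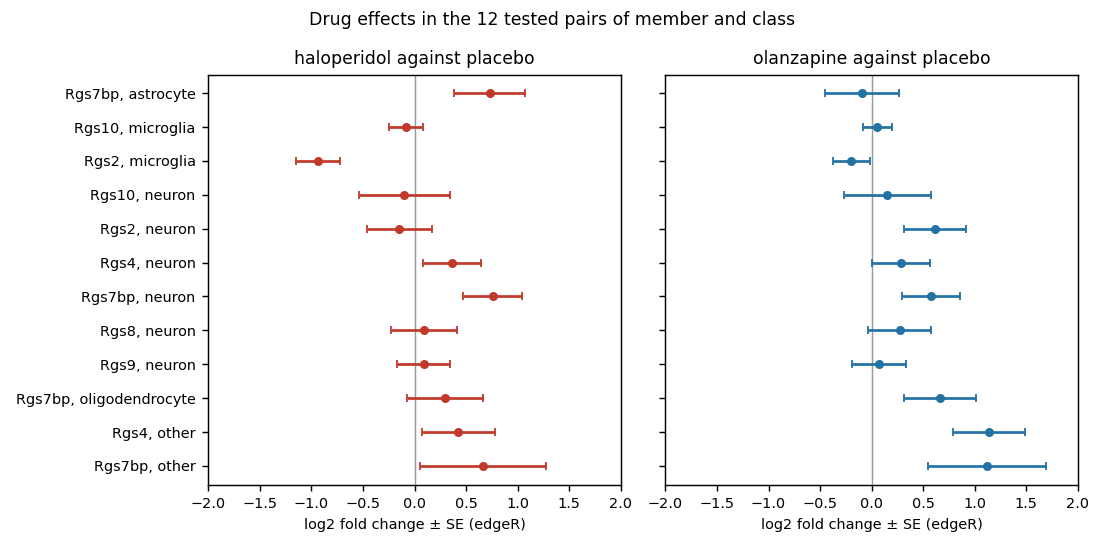
Fitted log2 fold change (points) with its standard error (whiskers) for the 12 tested pairs of member and class, haloperidol against placebo at left and olanzapine against placebo at right, both against the same placebo mice. No pair passed an adjusted p of 0.05, and the widest distance from 0 is Rgs2 in microglia in the haloperidol panel (-0.94) and Rgs4 in the class other in the olanzapine panel (1.14).

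Rgs2 in microglia was the member with the smallest p. The 5 placebo mice held 1021, 1001, 728, 1042 and 685 CPM, and the 3 haloperidol mice with at least 10 microglia held 364, 582 and 478 CPM. The 5 olanzapine mice held 1139, 610, 927, 600 and 734 CPM. All 3 haloperidol values lay below all placebo and all olanzapine values, while olanzapine and placebo overlapped. The share of all microglial genes whose groups separate in this way is not known here, so the separation is only a description. Means were 474 ± 109 CPM with haloperidol (SD, n = 3), 802 ± 230 with olanzapine (n = 5) and 896 ± 174 with placebo (n = 5). The log2 fold change was -0.94 ± 0.22 (SE) for haloperidol against placebo (unadjusted p = 9.6e-05, edgeR adjusted p = 0.265, first of 3078 genes by p), -0.74 ± 0.22 for haloperidol against olanzapine (edgeR adjusted p = 0.805) and -0.20 ± 0.18 for olanzapine against placebo (edgeR adjusted p = 1.00). Without the shared cells of placebo 5, the first was -0.94 ± 0.21 (edgeR adjusted p = 0.122). In microglia an unadjusted p under 0.05 was reached by 4.78% of genes for haloperidol and 3.25% for olanzapine against placebo, and by 5.62% between the drugs.

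The other 2 haloperidol mice did not show the low values. Haloperidol 1, with 6 microglia, held Rgs2 at 1245 CPM (33 UMIs, 95% Poisson interval 857 to 1749, counting error only), and haloperidol 2, with 9 microglia, at 749 CPM (23 UMIs, 475 to 1124). Both lay within or above the placebo range. With mice of at least 5 cells admitted, the log2 fold change was -0.61 against placebo (edgeR adjusted p = 0.998) and -0.42 against olanzapine (edgeR adjusted p = 0.999). Identity markers did not separate the groups: summed microglial markers spanned 30083 to 32127 CPM with haloperidol, 29340 to 39105 with olanzapine and 30199 to 40933 with placebo. Pericyte markers in microglia had a median of 0 CPM in each group, and the 3 border macrophage markers in the table (Mrc1, Cd163 and Pf4) spanned 0 to 64.1, 0 to 45.3 and 0 to 20.4 CPM. Immediate early genes, which rise with stimulation and with dissociation, had 13 of 15 values lower with haloperidol in microglia (median log2 fold change -0.19), against 2 higher. The median over all genes of the class was -0.01, and the 15 share the same mice, so their directions are not independent. None of the 15 passed the test, and their part in the Rgs2 values was not tested.

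Rgs10, the other member measured in microglia, stayed close. It held 1794 ± 138 CPM with haloperidol (n = 3), 1990 ± 62.7 with olanzapine (n = 5) and 1869 ± 188 with placebo (n = 5). The log2 fold changes were -0.08 ± 0.17 and 0.06 ± 0.14 (SE) against placebo, small beside the SE. All 3 haloperidol values lay below all 5 olanzapine values, with a log2 fold change of -0.14 ± 0.17 (edgeR adjusted p = 0.960). As for Rgs2, the share of genes that separate in this way is not known here.

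**Figure D4:**
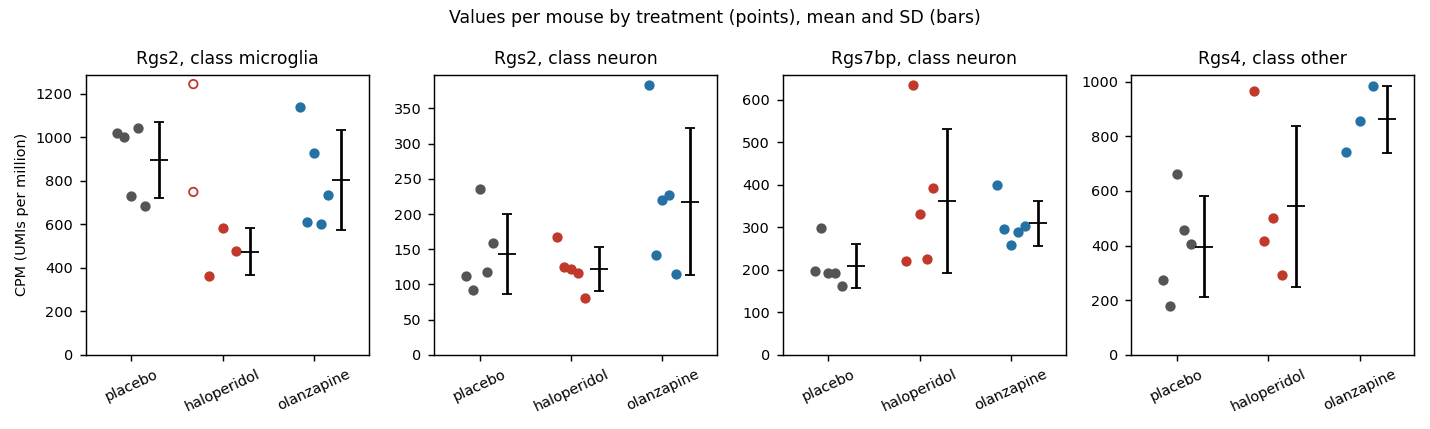
CPM per mouse (filled points) by treatment, with mean and SD beside them, for Rgs2 in microglia and in neurons, Rgs7bp in neurons and Rgs4 in the class other. Open points are haloperidol 1 and 2, which had 6 and 9 microglia, entered no mean, and lie above the 3 filled haloperidol points (1245 and 749 CPM).

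In neurons, Rgs2 took another order. Placebo mice held 112, 92.3, 235, 117 and 158 CPM, haloperidol mice 168, 125, 122, 116 and 80.7 CPM, and olanzapine mice 383, 142, 220, 227 and 115 CPM. The groups overlapped, with olanzapine 1, 3 and 4 among the high values and placebo 3 beside them. The log2 fold change was 0.62 ± 0.30 (SE) for olanzapine against placebo, -0.15 ± 0.32 for haloperidol against placebo and -0.77 ± 0.31 for haloperidol against olanzapine (edgeR adjusted p = 1.00 for each). Olanzapine 1, with 16 neurons, weighed on the first: without it the value was 0.38. Pooled direct-pathway neuron-like cells held Rgs2 at 115 CPM (82.1 to 156) with haloperidol and 135 CPM (99.6 to 179) with olanzapine. With placebo they held 165 CPM (120 to 223). Indirect-pathway neuron-like cells held 184 (136 to 243), 170 (121 to 233) and 97.1 CPM (59.3 to 150). The class order appeared in neither, and these 95% Poisson intervals overlap and cover counting error only. Those cells held 22.6% and 18.7% of neuronal Rgs2 UMIs. In neurons, 2.85% of genes reached an unadjusted p under 0.05 for haloperidol and 4.11% for olanzapine against placebo, and 1.44% between the drugs. The log2 CPM of Rgs2 (with TMM scaling and a prior count of 2) in microglia minus that in neurons of the same mouse was 2.15 ± 0.60 with haloperidol (SD, n = 3), 1.86 ± 0.50 with olanzapine (n = 5) and 2.63 ± 0.63 with placebo (n = 5). These differences are a description, since gene and classes were chosen with the contrasts known, and whether the drug differences of the 2 classes differ is not concluded.

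Rgs2 is itself known as a fast-responding gene. In neurons, all 9 tested immediate early and dissociation response genes were higher with olanzapine than with placebo (median log2 fold change 0.40), and 8 of 9 were lower with haloperidol (median -0.14). Over all genes of the class these medians were 0.02 and 0.01. The 9 genes were measured in the same mice, so their directions are not independent. None of the 9 passed the test. Over the 15 mice, Rgs2 and the mean of these 9 genes in neurons gave Pearson r = 0.736 (permutation p = 0.00148, adjusted over 3 classes 0.00444) and Spearman rho = 0.596 (permutation p = 0.0214, adjusted 0.0643). Taken as deviations from the group means, r was 0.641 (permutation p = 0.0113, adjusted 0.0340) and rho 0.664 (permutation p = 0.00828, adjusted 0.0248). For deviations, here and below, mice were reordered across groups with no allowance for the subtracted means. Their p-values may therefore be too small, and no pass is read from them. Without the 2 mice farthest from the median, r was 0.498 for the values (without olanzapine 1 and 3, permutation p = 0.0840) and 0.434 for the deviations (without olanzapine 1 and 5, permutation p = 0.139) by Pearson's measure, and rho was 0.379 (permutation p = 0.202) and 0.484 (permutation p = 0.0961). Neither measure passed without those mice, in a test of 13 mice in place of 15. In microglia (r = 0.359, n = 13, permutation p = 0.229) and astrocytes (r = 0.378, n = 15, permutation p = 0.160) it did not pass, and without placebo 5 the neuron value was 0.732. Without placebo 1 and placebo 4, the 2 farthest, microglia gave r = 0.506 (n = 11, permutation p = 0.111), and 0.585 for the deviations (permutation p = 0.0600). Astrocytes gave 0.130 and 0.193 without haloperidol 2 and olanzapine 2 (n = 13). Rgs2 was near the floor in astrocytes, at 8.46 ± 8.74 CPM with no UMI in 7 of 15 mice. A correlation could hardly show there, and nothing is read from the astrocyte values. The neuron and microglia values were thus close once the farthest mice were left out. These values share library and depth within a mouse.

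**Figure D5:**
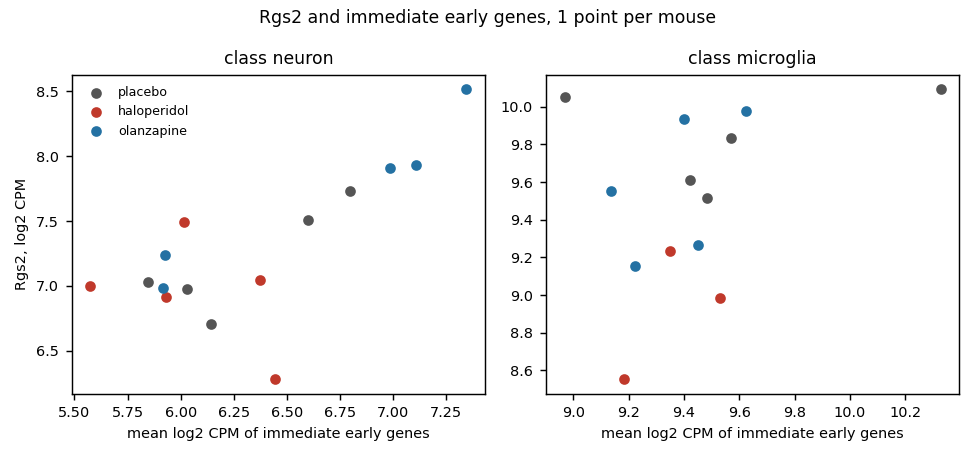
Rgs2 (log2 CPM, vertical) against the mean log2 CPM of the tested immediate early and dissociation response genes (horizontal; 9 genes in neurons, 15 in microglia), 1 point per mouse coloured by treatment. In neurons olanzapine 1, 3 and 4 lie at the upper right, and r falls from 0.736 to 0.498 without olanzapine 1 and 3. In microglia r was 0.359, and 0.506 without placebo 1 and placebo 4.

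Rgs7bp in neurons was higher on average with both drugs, within overlapping ranges. Placebo mice held 198, 299, 192, 192 and 163 CPM, haloperidol mice 221, 636, 331, 226 and 393 CPM, and olanzapine mice 399, 296, 258, 289 and 304 CPM. Only placebo 2 among the placebo mice reached the values of the treated mice. The log2 fold change was 0.76 ± 0.28 (SE) with haloperidol and 0.57 ± 0.28 with olanzapine (edgeR adjusted p = 1.00 for both), against the same placebo mice. Haloperidol 2, with 15 neurons, held the highest value, and without it the first was 0.46. Without the shared cells of placebo 5 the values were 0.78 ± 0.29 and 0.59 ± 0.29. Marker sums moved within the class as well: direct-pathway markers had a median of 1990 CPM with haloperidol, 2902 with olanzapine and 4436 with placebo, indirect-pathway markers 5489, 4931 and 6308 CPM, and interneuron markers 8490, 6422 and 3787 CPM, the last from 27.1 to 22235 CPM among placebo mice. All 3 sums overlapped between the groups, and their part in the Rgs7bp values was not tested. Within pooled direct-pathway neuron-like cells Rgs7bp was 213 CPM (167 to 267) with haloperidol, 222 CPM (176 to 277) with olanzapine and 188 CPM (139 to 249) with placebo, and within indirect-pathway neuron-like cells 270 (211 to 340), 236 (177 to 307) and 218 CPM (159 to 292), with intervals that overlap and cover counting error only. Those cells held only 18.5% and 15.7% of neuronal Rgs7bp UMIs. The cluster of shared projection neuron markers held 44.2%, and its level by treatment was not examined. Its cells numbered 28 with haloperidol, 54 with olanzapine and 29 with placebo.

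Elsewhere Rgs7bp was scattered. In astrocytes it was low, at 45.6 ± 19.2 CPM with haloperidol, 23.97 ± 13.6 with olanzapine and 30.4 ± 12.4 with placebo (n = 5 each), with log2 fold changes of 0.73 ± 0.34 (SE) for haloperidol against placebo and 0.82 ± 0.34 for haloperidol against olanzapine (edgeR adjusted p = 0.998 and 0.999). Among astrocyte genes, 3.88% and 3.03% reached an unadjusted p under 0.05 for haloperidol and olanzapine against placebo, and 3.23% between the drugs. Without the shared cells of placebo 5, Rgs7bp no longer passed the filter on low counts in astrocytes. In the class labelled oligodendrocyte olanzapine mice held 139 ± 38.1 CPM (n = 3) and placebo mice 88.3 ± 51.4 (n = 4), a log2 fold change of 0.66 ± 0.35 (edgeR adjusted p = 1.00).

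Rgs4 in the vascular class other had its highest mean with olanzapine, at 862 ± 122 CPM (SD, n = 3), against 544 ± 295 with haloperidol (n = 4) and 396 ± 185 with placebo (n = 5). The 3 olanzapine mice held 742, 858 and 986 CPM, the 5 placebo mice 274, 179, 661, 458 and 408 CPM, and the 4 haloperidol mice 967, 415, 500 and 293 CPM. All 3 olanzapine values lay above all 5 placebo values, whereas haloperidol spanned both. How large a share of the genes in this class separates in this way is not known here. The log2 fold change was 1.14 ± 0.35 (SE) for olanzapine (edgeR adjusted p = 0.305) and 0.43 ± 0.35 for haloperidol against placebo (edgeR adjusted p = 0.867). Without the shared cells of placebo 5 the olanzapine value was 1.02 ± 0.38 (edgeR adjusted p = 0.579), and with no filter on low counts it was 1.16 and passed the test (edgeR adjusted p = 0.00284). In this class, an unadjusted p under 0.05 was reached by 9.84% of 3202 genes for olanzapine and 5.93% for haloperidol against placebo, and by 4.25% between the drugs.

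Markers of the cells that carry most Rgs4 in this class were compared between the groups. Smooth muscle markers (4 genes) summed to 4043 to 7180 CPM with olanzapine and 490 to 3003 CPM with placebo, without overlap, and to 2568 to 4769 CPM with haloperidol. The share of genes or marker sums of this class that separate in this way is not known here, so this too is only a description. Pericyte markers (5 genes) summed to 7701 to 10000 CPM with olanzapine, 2247 to 9960 CPM with placebo and 2979 to 7547 CPM with haloperidol. Of the class other, pericyte-like cells numbered 51 with olanzapine, 29 with placebo and 29 with haloperidol, and smooth muscle-like cells 21, 8 and 14. More mural cells in the class and more Rgs4 per mural cell cannot be told apart in a sum over the class. Within pericyte-like cells, pooled over mice and added after the class values had been seen, Rgs4 was 2051 CPM (1791 to 2339) with olanzapine, 1810 CPM (1475 to 2200) with placebo and 1570 CPM (1279 to 1907) with haloperidol. Within smooth muscle-like cells it was 1444 (1221 to 1695), 1301 (934 to 1765) and 1012 CPM (781 to 1290). Olanzapine and placebo intervals overlapped in both, which cover counting error only, and too few mice had 10 such cells for a test. Immediate early genes also stood higher in this class with olanzapine, 14 of 15 (median log2 fold change 0.59, none past the test), and their part was not tested. The median over all genes of the class was -0.02, and the 15 share the same mice, so their directions are not independent.

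Of the 129 Rgs7bp UMIs in the class other, 48.1% lay in smooth muscle-like cells and 34.9% in unnamed clusters. Rgs7bp in this class held 121 ± 56.0 CPM with olanzapine (n = 3), 88.9 ± 65.8 with haloperidol (n = 4) and 51.9 ± 44.0 with placebo (n = 5). The log2 fold changes of 1.12 ± 0.57 and 0.67 ± 0.61 (SE) against placebo did not pass (edgeR adjusted p = 0.552 and 0.867).

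Among the remaining members in neurons, no difference exceeded 1.5 times its SE. Rgs9 ranged from 330 to 536 CPM with haloperidol, 334 to 451 with olanzapine and 206 to 456 with placebo, with log2 fold changes of 0.09 ± 0.26 and 0.07 ± 0.26 (SE) against placebo. Rgs8 held 74.6 ± 26.2, 82.2 ± 19.4 and 69.3 ± 16.3 CPM (n = 5 each), with log2 fold changes of 0.09 ± 0.32 and 0.27 ± 0.31. Rgs4 in neurons held 294 ± 114, 275 ± 51.8 and 221 ± 82.0 CPM, with log2 fold changes of 0.36 ± 0.28 and 0.29 ± 0.28. Within indirect-pathway neuron-like cells, pooled over mice, Rgs4 was 292 CPM (231 to 365) with haloperidol, 305 CPM (238 to 386) with olanzapine and 155 CPM (106 to 219) with placebo, and within direct-pathway neuron-like cells 250 (200 to 308), 183 (141 to 233) and 173 CPM (126 to 231). Both drug intervals lay above the placebo interval in the indirect-pathway cells, but they cover counting error only, and the placebo value without the shared cells of placebo 5 was 173 CPM (118 to 244), which overlaps both. The indirect- and direct-pathway neuron-like cells held 18.0% and 19.7% of neuronal Rgs4 UMIs. Rgs10 in neurons held 92.3 ± 56.3, 108 ± 60.4 and 104 ± 60.9 CPM. The untested Rgs14 held 43.7 ± 45.8, 40.7 ± 9.54 and 32.6 ± 23.0 CPM in neurons, where haloperidol 2 alone reached 125 CPM.

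Other genes of the pathway were counted from lists in neurons and microglia, and none of their genes passed the test in either class, as in the class other. Of other RGS and RGS-binding genes, 6 were tested in neurons (3 higher and 3 lower with haloperidol, 4 and 2 with olanzapine) and 5 in microglia (2 and 3, and 1 and 4). The nearest relative of the Rgs2 pattern there was Rgs1, another RGS gene at 287 ± 90.0 CPM in microglia (n = 13), with log2 fold changes of -0.79 ± 0.25 (SE) for haloperidol and -0.17 ± 0.20 for olanzapine against placebo. In neurons Rgs17 gave -0.63 ± 0.28 with haloperidol. Gnb5, the beta subunit that partners Rgs9, was present in neurons at 228 ± 66.7 CPM (n = 15). Of the stimulatory alpha subunits, Gnal stood there at 397 ± 102 CPM and Gnas at 545 ± 230 CPM. Of alpha subunits, 8 were tested in neurons (5 higher and 3 lower with each drug), among them Gnao1 at 0.47 ± 0.25 and 0.51 ± 0.25, and 6 in microglia (2 and 4 with haloperidol, 3 and 3 with olanzapine), among them Gna15 at -0.47 ± 0.23 with haloperidol. Beta and gamma subunits counted 4 higher and 2 lower with each drug in neurons, and 4 and 3 with haloperidol and 2 and 5 with olanzapine in microglia.

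Upstream and downstream of the G proteins the counts were as mixed. Of 18 receptors tested in neurons, 10 were higher and 8 lower with each drug, with Cnr1, the cannabinoid receptor, at 0.88 ± 0.32 with haloperidol and Gpr83 at 1.05 ± 0.49 with olanzapine. Of 10 receptors in microglia, 3 were higher and 7 lower with haloperidol, and 4 and 6 with olanzapine, with the complement receptor C3ar1 at -0.57 ± 0.26 and -0.49 ± 0.22. Of 18 effectors and modulators in neurons, 13 were higher with haloperidol and 14 with olanzapine (medians 0.14 and 0.13, against 0.01 and 0.02 over all genes of the class), and of 5 in microglia 2 were higher with each drug. Both drugs were compared with the same placebo mice, so their counts are not independent.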

How the data were processed

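Single-cell 3' RNA libraries of striatum from 15 mice were analysed. The deposited values are whole UMI counts for 15932 genes and 5581 cells, with mouse, drug and class per cell. The authors made these counts with mm10, Cell Ranger and Seurat, per the submitters' processing notes, with tool versions not given in the sources used here. Cells over 20% mitochondrial counts (23) and 82 doublets called per mouse by Scrublet (scanpy 1.11.5, Python 3.11.15; 1.47% of cells, 38 of them among the 128 of olanzapine 2) were left out. Placebo 5 shares barcodes with placebo 2 and placebo 3, as given in the results. Counts were summed per mouse and class (at least 10 cells, at least 3 mice per group) and tested in R 4.3.3 by the robust quasi-likelihood test of edgeR 4.0.16, with TMM scaling, filterByExpr and all groups in 1 fit. Printed CPM are without TMM scaling, which enters only the fold changes and the log2 CPM of single mice. Alternatives included DESeq2 1.42.0, other scalings, filters, cell minimums and leaving out each mouse. Clusters came from Leiden resolution 1 (leidenalg 0.10.2; 2000 variable genes, 30 components, 15 neighbours), named where 3 or more markers of a type were enriched 2-fold, more than of any other type, unless another type had more markers among the 10 leading genes. The edgeR step was tested on simulated data. All 8 members are named. List genes are named from the 2 smallest p per list, class (neurons, microglia) and drug, and like genes are the 3 highest correlations among genes with at least 200 UMIs. Some of these genes are not reported here. The levels of Gnb5, Gnal and Gnas, levels within clusters by treatment and in unnamed clusters, and the rank correlation without 2 mice were added after values had been seen. So were the fits without the shared cells of placebo 5. Members and lists were chosen with earlier results of these data known. Depth per mouse is given in the results. The edgeR p-values set a group difference against the variation between mice, and permutation p-values come from reordering the mice across groups. The main fits keep the shared cells of placebo 5, so placebo 5 may not be independent of placebo 2 and placebo 3.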

Additional observations from a re-analysis of the deposited data

Results flagged for a closer look

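In 31 groups of 4 or 5 mice with a tested member and class, the highest or lowest mouse was compared with the others by Dixon's criterion, and chance alone sets 1 mouse apart in about 1 of 20 groups. Here 2 groups had such a mouse. Rgs7bp in astrocytes of olanzapine 2 stood at 0.0 CPM, from 14 astrocytes with 38500 UMIs, which allows up to 77.9 CPM (3 counts, counting error only), while the other 4 olanzapine mice held 27.6 to 33.4 CPM. Rgs7bp in neurons of placebo 2 stood at 299 CPM, while the other 4 placebo mice held 163 to 198 CPM. Placebo 2 is one of the libraries that share barcodes with placebo 5.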

How the results depend on the processing

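The count of members called was 0 in all 3 comparisons under each alternative run, except olanzapine against placebo with no filter on low counts, where it was 1 (Rgs4 in the class other). Leaving out 1 mouse at a time gave 0 to 0 members in each comparison, with a lowest edgeR adjusted p of 0.0926 for haloperidol (without placebo 5) and 0.0949 for olanzapine (without haloperidol 2) against placebo. Each of the 9 fold changes followed had the same direction wherever an alternative gave a value. That was 21 alternatives for 7 of them and 18 for Rgs7bp in astrocytes, which gave none with only the 2 groups compared, without haloperidol 3 or without the shared cells of placebo 5. Rgs2 in microglia with haloperidol ranged from -1.11 (without haloperidol 4) to -0.61 (at least 5 cells per mouse), and was -0.77 without haloperidol 3. Its difference from olanzapine ranged from -0.91 to -0.42. Rgs4 in the class other with olanzapine ranged from 0.94 (without placebo 2) to 1.36 (without placebo 3). No paired analysis was possible because the labels give no numbers shared between groups. Haloperidol microglia came from 3 mice, and Rgs14 and Rgs16 were too scarce to test.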
